A study of Homo sapiens with 9 samples.

Results

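Transcripts of 41 genes of homologous recombination, the Fanconi anemia pathway, mismatch repair and the DNA damage checkpoint were followed across a vehicle and a pair of doses of a compound cocktail in human HMC3 cells. The genes were taken by name from the 61544 genes listed in the count file, and all 41 were found and had enough reads to be tested, together with 14727 tested genes in all. HMC3 is a line derived from human microglia that carries the SV40 large T antigen, which makes cells grow without limit by inactivating p53 and Rb, and all libraries came from it. RNA was sequenced from 9 libraries, 3 per group. The VEH group received the solvent DMSO. The SLO group received 10 µM SBI-0206965, which blocks ULK1, a kinase that starts autophagy, 1 µM O-151, an inhibitor of the oxidized-guanine glycosylase OGG1, and 1 µM Lopinavir, an HIV protease inhibitor that also disturbs Lamin A processing. The SLO ½ group received 5 µM SBI-0206965, 0.5 µM O-151 and 0.5 µM Lopinavir. All groups were treated for 6 days, and the compounds were given only together, so the contribution of any one of them cannot be told apart.

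Homologous recombination mends a broken chromosome by copying the intact sister, and it works mainly once DNA has been replicated. The MRE11, RAD50 and NBN complex opens the break, BRCA1, PALB2 and BRCA2 bring the recombinase to the exposed strand, and helper proteins drive strand exchange. The Fanconi pathway unhooks the cross-linked strands that block replication forks, with the FANCD2 and FANCI pair as its central switch, while mismatch repair corrects copying errors and the kinases ATM, ATR, CHEK1 and CHEK2 pause the cell cycle. Many of these genes are transcribed most strongly around S phase, so their transcript level in a culture can move with the share of cycling cells.

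The libraries held 14834295 to 19674841 reads assigned to genes, and the 41 genes took 45612 to 65223 of these per library. Read levels are given as library-size scaled reads (CPM) after TMM scaling, a correction for RNA composition whose factors ran from 0.968 to 1.03. Mitochondrially encoded transcripts took 1.30% to 1.61% of reads in VEH, with SLO ½ at 2.30% to 2.86% and SLO at 2.51% to 3.12%. Of 10 microglial markers, only 2 had enough reads to be tested, 9 stayed under 1 CPM in every library, and the purinergic receptor gene P2RY12 was at 0 in all 9 libraries. The summed level of these 10 markers was 0.525 to 0.889 CPM in VEH, with SLO ½ at 1.59 to 2.40 and SLO at 1.94 to 2.06. By contrast, COL1A1, COL1A2, PDGFRB and VIM, markers of mesenchymal cells, summed to 4260 to 4620 CPM in VEH, with SLO ½ at 4940 to 5020 and SLO at 5110 to 5350. These 4 did not move together: in SLO against VEH COL1A1 (0.48 on the log2 scale) and COL1A2 (0.25) were called higher and PDGFRB (-0.28) and VIM (-0.12) lower, and the sum follows COL1A1, the most abundant. The defining markers of microglia were thus near absent, and the genes below are described for HMC3 cells only. Whether either marker list bears on the repair genes was not tested.

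Promoter sequences are shown for 6 of the genes, the 3 with the smallest adjusted p in each direction among those with a single promoter in the RefSeq table (GRCh38.p14), because the later sections turn on how these genes moved. Each runs for 190 bases before the listed transcription start and 10 bases from it, on the strand of the gene. Capitals mark letters that fit an E2F-type site, the sequence read by the S phase factors of that name (TTTCCCGC, TTTGGCGC, TTTGCCGC or TTTCGCGC on either strand), or a CCAAT box (CCAAT on either strand). A further motif, the cell cycle homology region (TTTGAA on either strand), was searched for as well and occurs in none of the 6. No 2 of these motifs share letters in the sequences shown. FANCD2, RAD51AP1 and TOPBP1 were lower and CLSPN, BARD1 and CHEK2 higher in SLO than in VEH.
FANCD2, chr3:10026247-10026446, plus strand: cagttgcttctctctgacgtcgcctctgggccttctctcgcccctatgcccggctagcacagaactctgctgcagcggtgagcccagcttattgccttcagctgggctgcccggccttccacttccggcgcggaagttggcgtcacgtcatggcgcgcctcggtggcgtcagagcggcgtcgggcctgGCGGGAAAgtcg
RAD51AP1, chr12:4538700-4538899, plus strand: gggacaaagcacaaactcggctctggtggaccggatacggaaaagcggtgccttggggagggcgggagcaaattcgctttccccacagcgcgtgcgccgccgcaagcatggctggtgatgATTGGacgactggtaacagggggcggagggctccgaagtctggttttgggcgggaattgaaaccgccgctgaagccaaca
TOPBP1, chr3:133661932-133662131, minus strand: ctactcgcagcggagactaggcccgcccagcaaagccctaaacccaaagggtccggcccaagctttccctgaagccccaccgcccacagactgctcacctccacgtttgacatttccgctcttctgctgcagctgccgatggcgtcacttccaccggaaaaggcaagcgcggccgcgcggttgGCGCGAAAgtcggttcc
CLSPN, chr1:35769969-35770168, minus strand: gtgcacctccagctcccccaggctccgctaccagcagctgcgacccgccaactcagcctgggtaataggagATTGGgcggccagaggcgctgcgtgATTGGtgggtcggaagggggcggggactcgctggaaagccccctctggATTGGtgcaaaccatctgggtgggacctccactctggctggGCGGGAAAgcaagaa
BARD1, chr2:214809674-214809873, minus strand: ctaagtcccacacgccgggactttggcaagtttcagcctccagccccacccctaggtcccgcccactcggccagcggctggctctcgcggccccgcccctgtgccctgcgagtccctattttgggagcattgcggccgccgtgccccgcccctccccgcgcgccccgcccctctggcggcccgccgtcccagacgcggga
CHEK2, chr22:28741811-28742010, minus strand: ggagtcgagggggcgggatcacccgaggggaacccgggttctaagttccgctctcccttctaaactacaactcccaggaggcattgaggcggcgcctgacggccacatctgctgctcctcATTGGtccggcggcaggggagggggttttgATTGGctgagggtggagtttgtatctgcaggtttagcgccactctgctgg

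The E2F-type letters began 2 bases before the start in FANCD2, 7 bases before it in TOPBP1 and 5 bases before it in CLSPN, so such letters lay close to the start both in genes that fell and in a gene that rose. CLSPN carried 3 CCAAT boxes as well, at 119, 94 and 46 bases before the start, RAD51AP1 had one at 70 bases, and CHEK2 had them at 70 and 40 bases and at 199 bases, the last lying outside the stretch shown. BARD1 held none of the letters searched. Over windows of 250 bases before to 50 bases after the start, the RefSeq table matched 37 of the 41 genes, with 53 promoters, and E2F-type letters stood in at least one promoter of 10 of them (27.0%), against 6.70% of 10758 tested genes and 3.99% of all 27305 genes in the table. Those 10 genes were CLSPN, EXO1, FANCA, FANCC, FANCD2, MSH3, MSH6, PMS2, TOPBP1 and XRCC2. Of single promoters, 11 of 53 (20.8%) held these letters, against 4.92% of the 15639 of tested genes and 3.31% of all 35116. A CCAAT box was present in 17 of the 37 genes (45.9%, against 43.5% of tested genes), and the cell cycle homology region in 3 (8.11%, against 13.5%). Among the genes lower in SLO than in VEH, 7 of 17 with a listed promoter held E2F-type letters, as did 1 of 6 higher and 2 of 14 that passed no test. The same split was not counted over all tested genes, and whether these letters go with a direction was not tested. These matches describe letters, and binding was not measured.

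SLO was first compared with VEH, the study's main contrast, which asks how the full cocktail changed the transcripts of treated cells. By edgeR's quasi-likelihood test with Benjamini-Hochberg adjustment over all tested genes, called at an adjusted p under 0.05, 20 of the 41 genes were lower in SLO, 6 were higher and 15 were not called. Of all tested genes, 64.9% were called in this contrast, so the 63.4% of repair genes that were called is close to the background. The split by direction was 48.8% lower and 14.6% higher, against 32.1% lower and 32.9% higher over all tested genes. The changes were small: the median log2 fold change of the 41 genes was -0.18, against 0.014 over all tested genes, and the values ran from -0.67 to 0.39. Only FANCD2 was called and passed a fold of 1.5, while 3812 of all 14727 tested genes did so. In 21 genes every SLO library lay below every VEH library (51.2%, background 33%), and in 5 genes every SLO library lay above (12.2%, background 33.7%). Nothing in the labels says whether the 3 libraries of a group came from separate cultures, so the p-values measure the spread between these libraries, and in bulk RNA fewer cells of a type and less RNA per cell cannot be told apart.

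**Figure D1:**
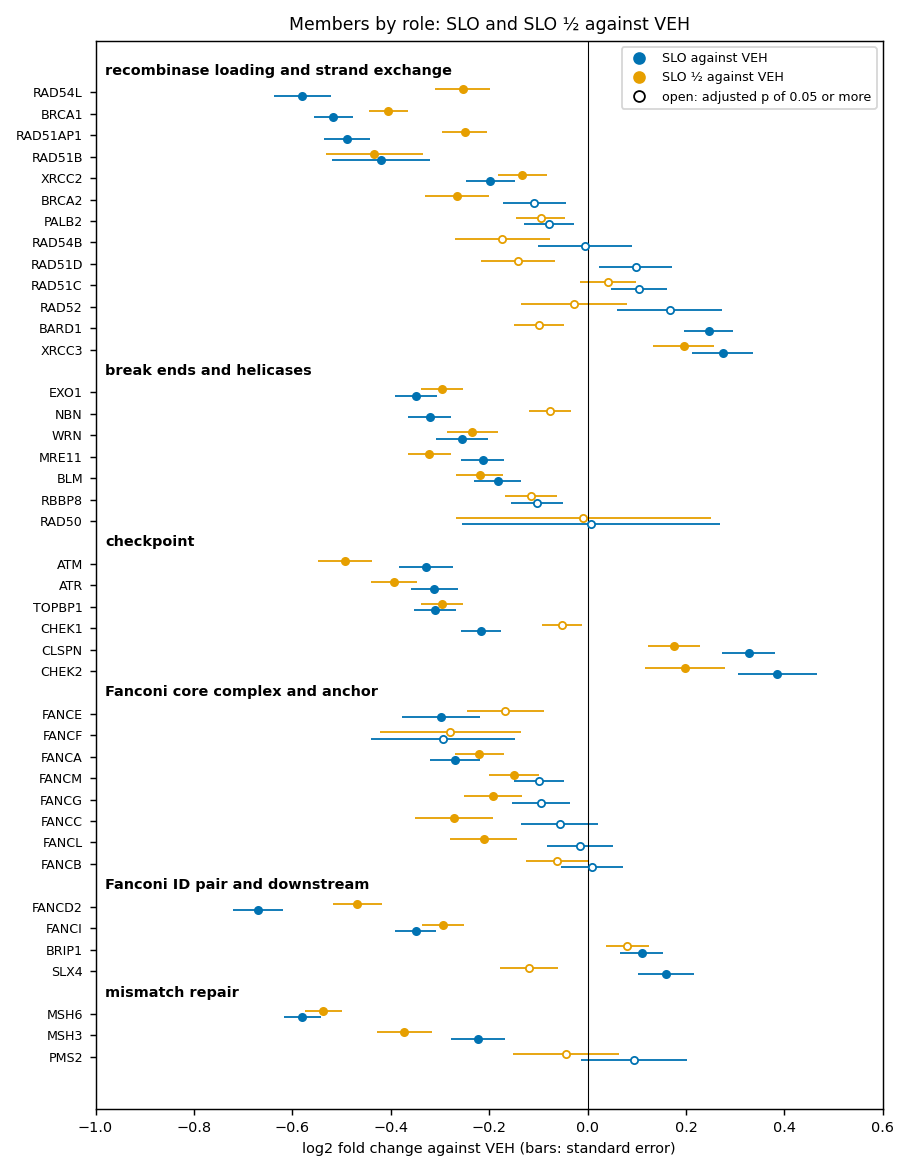
Log2 fold change of the 41 genes against VEH, ordered by role, for SLO (blue) and SLO ½ (orange), with bars of 1 standard error and open circles where the adjusted p was 0.05 or more. Most points lie to the left of 0, FANCD2 lies farthest left at -0.67 in SLO, and CHEK2 farthest right at 0.39.

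Among the genes that load the recombinase and drive strand exchange, 5 of 13 were lower in SLO (38.5%, against 32.1% of all tested genes), 2 were higher (15.4%, against 32.9%) and 6 were not called. BRCA1 (chr17:43044295-43170245), the ubiquitin ligase that helps start recombination, read 181, 189 and 181 CPM in the VEH libraries, 138, 137 and 142 in SLO ½ and 127, 129 and 129 in SLO. The groups did not overlap, and BRCA1 fell by 30.1% in SLO (log2 fold change -0.52 ± 0.040 SE, adjusted p = 2.37e-12). BARD1 (chr2:214725646-214809683), its obligate partner, took the other direction, with 81.2, 83.2 and 78.8 CPM in VEH, 74.1, 70.96 and 82.00 in SLO ½ and 96.1, 92.3 and 100.0 in SLO. All 3 SLO libraries lay above all other libraries, and BARD1 rose by 18.6% against VEH (0.25 ± 0.050 SE, adjusted p = 9.35e-05). The ratio of BARD1 to BRCA1 reads within a library, a pair picked after the values were seen, was 0.436 to 0.448 in VEH, with SLO ½ at 0.519 to 0.578 and SLO at 0.717 to 0.776.

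RAD54L (chr1:46246461-46278480), a motor protein that helps the recombinase invade the sister strand, read 51.6, 51.1 and 53.3 CPM in VEH, 42.4, 46.3 and 42.3 in SLO ½ and 33.3, 37.4 and 33.6 in SLO. Its libraries formed 3 separate steps, and the fall of 33.1% in SLO was among the largest of the 41 genes (fell by 0.58 on the log2 scale, SE 0.058, adjusted p = 7.71e-10). RAD51AP1 (chr12:4538798-4560047), which stimulates strand exchange, showed the same order, with 129, 117 and 124 CPM in VEH, 100.3, 109.7 and 101 in SLO ½ and 88.1, 85.3 and 90.5 in SLO. Its fold change in SLO was -0.49 ± 0.047 (SE) with an adjusted p of 3e-10. RAD51B, one of the paralogs that steady the recombinase filament, fell by 25.2% from a low level, and the paralog XRCC2 fell by 12.8%. XRCC3, of the same family, rose from 28.9, 27.5 and 28.4 CPM in VEH to 34.7, 35.7 and 32.2 in SLO (0.27 ± 0.062 SE, adjusted p = 0.000316), with 31.3, 32.4 and 33.5 CPM in SLO ½.

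BRCA2, which delivers the recombinase to single-stranded DNA, was not called in SLO. It read 64.3, 79.4 and 66.4 CPM in VEH and 59.4, 69.5 and 65.6 in SLO, with overlapping libraries and a 95% interval of -0.24 to 0.024 for the log2 fold change. Among the VEH libraries, replicate 2 at 79.4 CPM stood above the others. Without VEH replicate 1 it weighed more in the VEH mean, and BRCA2 was called at -0.17 with an adjusted p of 0.0288. PALB2, the bridge between BRCA1 and BRCA2, read 56.2, 59.6 and 60.7 CPM in VEH and 53.6, 56.5 and 57.4 in SLO, and was not called (interval -0.18 to 0.026). RAD51C, RAD51D, RAD52 and RAD54B were also not called, with log2 fold changes of 0.10, 0.098, 0.17 and -0.0055. RAD51C was called higher without SLO replicate 2, at 0.15 with an adjusted p of 0.0377, and also with scaling by library size alone or with a minimum of 10 counts in every library (0.13 to 0.18, adjusted p = 0.00672 to 0.0483). RAD51D was called higher with scaling by library size alone (0.17, adjusted p = 0.0484). For RAD54B, 66.0% of exon bases are shared with FSBP on the same strand, so its reads are those that the counting could assign.

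**Figure D2:**
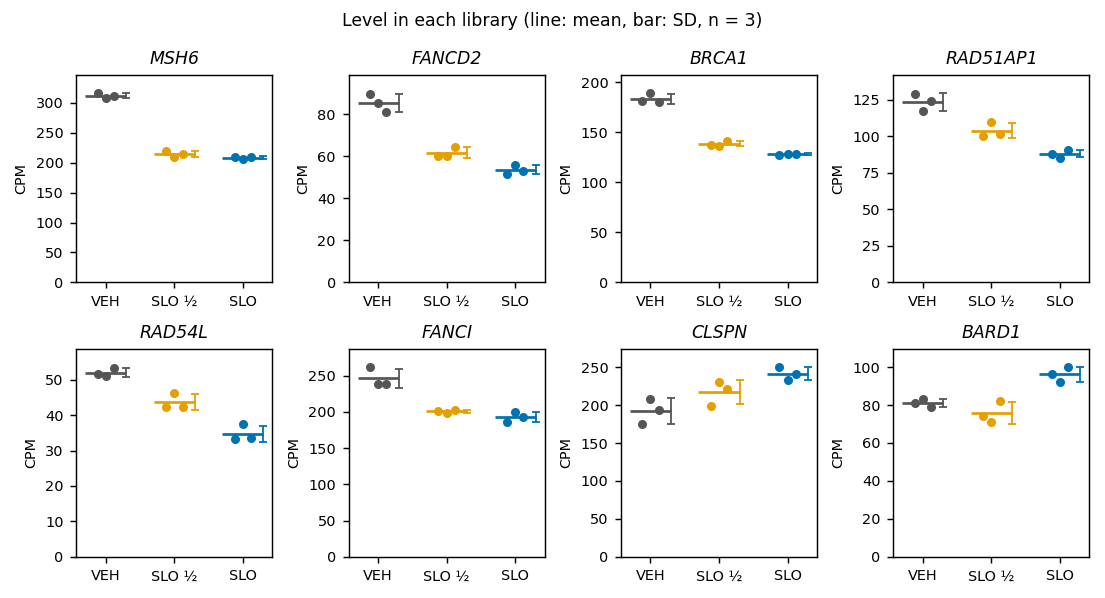
CPM of 8 genes in each of the 9 libraries (points), with the group mean (line) and SD (bar), n = 3; every axis starts at 0. In the 6 falling genes with the smallest adjusted p all VEH libraries lie above all others, while CLSPN and BARD1 are highest in SLO.

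Of the genes of break-end processing, 5 of 7 were lower in SLO (71.4%, background 32.1%) and 0 were higher by edgeR (0 also at an unadjusted p under 0.05 and by DESeq2). NBN (chr8:89933331-90003228), the signalling subunit of the break-sensing complex, read 129.8, 131 and 133 CPM in VEH, 123, 124 and 127 in SLO ½ and 105, 99.7 and 111 in SLO. The SLO libraries lay well below both other groups, and the fall in SLO was 19.9% (-0.32 ± 0.043 SE, adjusted p = 2e-07). MRE11, the nuclease of the same complex, read 125, 124 and 119 CPM in VEH, 92.9, 103 and 98.1 in SLO ½ and 105, 105 and 107 in SLO (-0.21 ± 0.044 SE for SLO, adjusted p = 0.000105). The NBN to MRE11 ratio was therefore highest in SLO ½, at 1.20 to 1.32, against 1.04 to 1.12 in VEH and 0.952 to 1.04 in SLO.

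EXO1, the exonuclease that lengthens the exposed strand, fell by 21.5% in SLO, from 116, 117 and 116 to 93.4, 88.5 and 92.6 CPM. The helicases BLM and WRN, which unwind recombination intermediates and are mutated in premature ageing or cancer-prone syndromes, fell by 11.9% and 16.2%. RBBP8, the cofactor that starts resection, read 58.2, 66.4 and 66.2 CPM in VEH and 60.6, 58.04 and 59.2 in SLO and was not called (interval -0.21 to 0.0052), although without VEH replicate 1 it was, at -0.17 with an adjusted p of 0.00619. RAD50, the remaining subunit of the break-sensing complex, could not be followed here. It had only 216 reads over the 9 libraries, at least 16 in each, and 76.9% of its exon bases are shared with ENSG00000283782, an overlapping gene on the same strand that was itself listed at 0 reads. Its interval in SLO ran from -0.53 to 0.54.

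All 6 checkpoint genes were called in SLO (background 64.9%), 4 lower (66.7%, background 32.1%) and 2 higher (33.3%, near the background of 32.9%). ATM, the kinase that answers to broken ends, read 174, 199.6 and 166 CPM in VEH, 137, 125 and 121 in SLO ½ and 136, 152 and 141 in SLO. Both treated groups lay below VEH without overlap, and the SLO value was -0.33 ± 0.055 (SE, adjusted p = 6.83e-06). ATR, the kinase of stalled forks, fell by 19.4% and its activator TOPBP1 by 19.4%, the latter from 252, 252 and 243 to 195, 196 and 212 CPM. CHEK1, the kinase downstream of ATR, fell by 13.9% in SLO, with 114, 115 and 113 CPM in VEH and 99.5, 95.3 and 99.3 in SLO.

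CLSPN (chr1:35720218-35769978), the adapter that lets ATR reach CHEK1, rose while CHEK1 fell. It read 175, 209 and 194 CPM in VEH, 199, 231 and 221 in SLO ½ and 250.3, 233 and 241 in SLO, a rise of 25.5% (0.33 ± 0.053 SE, adjusted p = 4.2e-06). The VEH and SLO ½ libraries overlapped, and the SLO libraries lay above both. CHEK2 (chr22:28687743-28742422), the kinase downstream of ATM, also rose while ATM fell, from 18.3, 16.4 and 15.2 CPM in VEH through 19.8, 19.04 and 18.2 in SLO ½ to 23.00, 20.7 and 21.3 in SLO. Its rise of 30.6% (0.39 ± 0.080 SE, adjusted p = 0.000119) was the largest among the 41 genes in that contrast. The CLSPN to CHEK1 ratio went from 1.53 to 1.82 in VEH, through 1.84 to 2.07 in SLO ½, to 2.42 to 2.52 in SLO. CHEK2 has 7 copies named after it in the file, all at 0 reads.

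**Figure D3:**
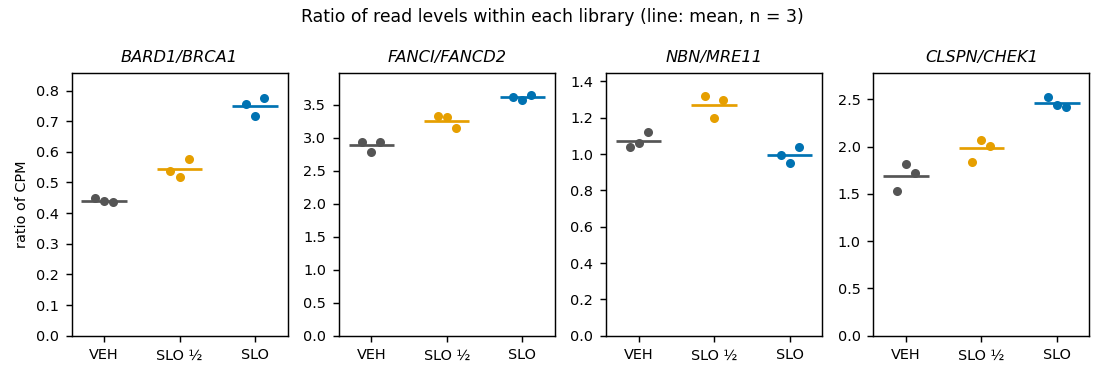
Ratio of CPM between partner proteins' genes within each library (points, with the mean as a line, n = 3) for 4 pairs chosen after the values were seen; the ratio compares groups, not the levels of the 2 genes. BARD1 over BRCA1, FANCI over FANCD2 and CLSPN over CHEK1 step up with dose, and NBN over MRE11 is highest in SLO ½.

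The Fanconi core complex, the ubiquitin ligase that switches on FANCD2 and FANCI, had 2 of 8 genes lower in SLO (25%, below the 32.1% of all tested genes) and 0 higher by edgeR (0 also at an unadjusted p under 0.05 and by DESeq2). FANCA, a core subunit, fell by 17.02%, from 76.1, 78.7 and 74.3 to 60.7, 68.2 and 60.97 CPM, and FANCE, which holds FANCD2, fell by 18.6%, from 22.1, 22.4 and 24.1 to 20.5, 16.4 and 19.1 CPM. FANCM, the motor that anchors the complex on DNA, was not called, although its SLO libraries (56.3, 56.1 and 55.9 CPM) lay below those of VEH (58.3, 62.3 and 59.8 CPM; interval -0.20 to 0.0051). FANCG, a core scaffold, read 57.97, 52.5 and 51.9 CPM in VEH and 46.7, 54.6 and 50.5 in SLO and was not called (interval -0.21 to 0.026). FANCL, the catalytic subunit, read 50.7, 50.03 and 47.5 CPM in VEH and 48.1, 50.7 and 47.5 in SLO. FANCB, FANCC and FANCF were not called, at 0.0085, -0.057 and -0.29. Without SLO replicate 2 FANCF was called at -0.41 (adjusted p = 0.0331) and FANCG at -0.15 (adjusted p = 0.0352).

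FANCD2 (chr3:10026370-10101932) fell further than any other gene of the 41. It read 89.6, 85.5 and 81.1 CPM in VEH, 60.2, 60.2 and 64.6 in SLO ½ and 51.6, 55.9 and 53.2 in SLO, 3 groups without overlap, and fell by 37.2% in SLO (-0.67 ± 0.051 SE, adjusted p = 2.22e-12). FANCI (chr15:89243945-89317261), which is ubiquitinated together with it, read 262, 238 and 239 CPM in VEH, 201, 199 and 203 in SLO ½ and 186, 199.9 and 193 in SLO, a fall of 21.5% (-0.35 ± 0.043 SE, adjusted p = 3.14e-08). FANCI reads per FANCD2 read accordingly stood at 2.79 to 2.94 in VEH, with SLO ½ at 3.14 to 3.33 and SLO at 3.57 to 3.64. SLX4, the scaffold that gathers nucleases, rose from 33.6, 34.2 and 33.9 CPM in VEH to 38.8, 37.3 and 37.6 in SLO (0.16 ± 0.057 SE, adjusted p = 0.0163), and BRIP1, a helicase that binds BRCA1, from 149.8, 149 and 140.4 to 149, 159 and 166 CPM (0.11 ± 0.044 SE, adjusted p = 0.0304). Both rises were lost with DESeq2 (adjusted p = 0.0575 and 0.0593) and without a filter on low counts (0.103 and 0.148), and that of BRIP1 with limma on TPM as well. SLX4 also lost its call without SLO replicate 1 (0.14, adjusted p = 0.0639), and BRIP1 without VEH replicate 3, SLO replicate 2 or SLO replicate 3 (0.071 to 0.10, adjusted p = 0.072 to 0.208).

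In mismatch repair, MSH6 (chr2:47695530-47810063), a subunit of the dimer that recognises single mispaired bases, had the smallest adjusted p of the 41 genes. It read 316, 307 and 311 CPM in VEH, 219, 210.1 and 214 in SLO ½ and 209.7, 206 and 209.6 in SLO, and fell by 33.1% (-0.58 ± 0.038 SE, adjusted p = 7.69e-14). In SLO ½ the value was -0.54 ± 0.038 (SE), so both treated groups lay well below VEH and close to each other. MSH3, which replaces MSH6 in the dimer for larger loops, fell less, by 14.3%, from 65.8, 75.3 and 66.7 to 56.96, 58.1 and 62.9 CPM. PMS2, the nuclease subunit that acts after recognition, was not called (0.094, interval -0.13 to 0.32). It has 15 named copies in the file, one with 1874 reads against 1575 for PMS2 itself, so its level is uncertain where reads were shared.

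SLO ½ was compared with VEH in the same way, with the same VEH libraries. Here 22 of the 41 genes were lower (53.7%), 3 were higher (7.32%) and 16 were not called. Over all tested genes, 52% were called, 25.3% lower and 26.7% higher. The median log2 fold change of the 41 genes was -0.19, against 0.015 over all tested genes. Libraries of SLO ½ lay wholly below VEH in 25 genes (61.0%, background 28.4%) and wholly above in 2 (4.88%, background 30%). By role, 6 of 13 recombinase genes, 4 of 7 break-end genes, 3 of 6 checkpoint genes, 5 of 8 Fanconi core genes, 2 of 4 genes of the FANCD2 and FANCI group and 2 of 3 mismatch repair genes were lower, shares of 46.2% to 66.7% beside the 25.3% of all tested genes. The 3 genes that were higher were XRCC3 (0.20 ± 0.062 SE, adjusted p = 0.00939), CHEK2 (0.20 ± 0.081 SE, adjusted p = 0.041) and CLSPN (0.18 ± 0.053 SE, adjusted p = 0.00689). The weakest calls rested on single libraries: XRCC2, XRCC3, CHEK2, CLSPN, FANCC, FANCG, FANCL and FANCM each lost theirs when some 1 library was left out (CHEK2 without any one of VEH replicates 2 and 3 and SLO ½ replicates 1 and 2, at 0.13 to 0.20, adjusted p = 0.0854 to 0.232). With limma on log2(TPM + 1) none of the 3 rises was called. CHEK2 also lost its call with DESeq2, with DESeq2 size factors and without a filter (adjusted p = 0.0516 to 0.121, limma included). Scaling by library size alone removed the calls of XRCC2, FANCL and FANCM.

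Taking both doses together, 17 genes were lower at both (41.5%, background 21.3%) and 3 higher at both (7.32%, background 22.2%), which is no independent repeat, since both contrasts share the VEH libraries. Of the 3 higher at both, CHEK2 was not called in SLO ½ by DESeq2, and none was by limma. By edgeR another 3 genes, NBN, CHEK1 and FANCE, were lower in SLO and not called in SLO ½, but both limma fits on TPM called NBN (-0.12, adjusted p = 0.0402 to 0.0412) and CHEK1 (-0.094 to -0.093, adjusted p = 0.0333 to 0.0353) lower in SLO ½ too. A further 5, BRCA2, FANCC, FANCG, FANCL and FANCM, were lower in SLO ½ and not called in SLO. BARD1, SLX4 and BRIP1 were higher in SLO and not called in SLO ½, although BRIP1 was called there with scaling by library size alone (0.13, adjusted p = 0.0123), and 10 genes were called at neither dose. Among these 10, PALB2, RBBP8, RAD54B and RAD51D were called lower in SLO ½ when some 1 library was left out, and PALB2 and RBBP8 with limma on TPM as well. No gene was called in opposite directions at the doses by edgeR (background 0.937%), at an unadjusted p under 0.05 or by DESeq2. Both limma fits did call 1 gene, SLX4, in opposite directions: higher in SLO and lower in SLO ½, the latter at -0.16 to -0.15 with adjusted p of 0.0355 to 0.0391. Without SLO ½ replicate 3 BARD1, higher in SLO with all libraries, was called lower in SLO ½, at -0.16 with an adjusted p of 0.0152.

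SLO was then compared directly with SLO ½, to see whether the full dose carried the genes further. Of the 41 genes, 6 were lower in SLO (14.6%, background 20.3%), 8 were higher (19.5%, background 20.8%) and 27 were not called. The 34.1% called lies below the 41.1% of all tested genes, and the median log2 fold change was 0.037, against -0.0014. Libraries of SLO lay wholly below SLO ½ in 7 genes (17.1%, background 25.6%) and wholly above in 9 (22.0%, background 25.4%).

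**Figure D4:**
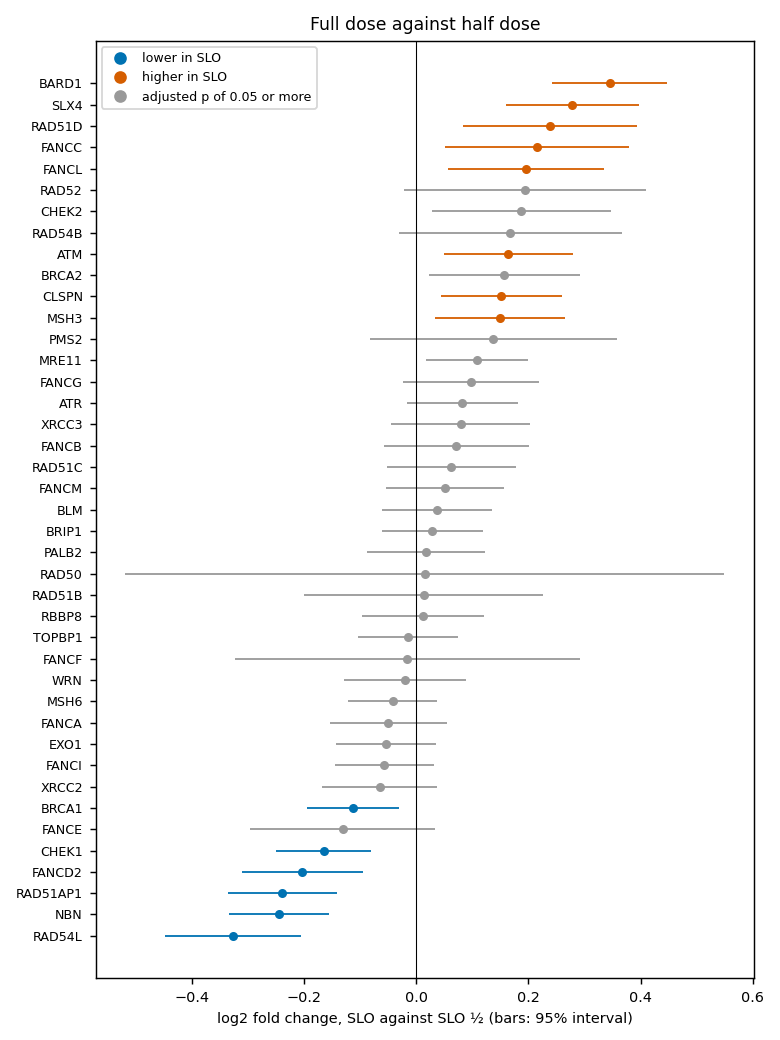
Log2 fold change of SLO against SLO ½ for the 41 genes, sorted, with 95% intervals; blue marks genes lower in SLO, orange those higher, grey those with an adjusted p of 0.05 or more. RAD54L stands lowest at -0.33 and BARD1 highest at 0.35, and 27 genes are grey.

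The genes lower in SLO than in SLO ½ were RAD54L (-0.33 ± 0.059 SE, adjusted p = 5.31e-05), NBN (-0.24 ± 0.043 SE, adjusted p = 3.98e-05), RAD51AP1 (-0.24 ± 0.047 SE, adjusted p = 0.000157), FANCD2 (-0.20 ± 0.053 SE, adjusted p = 0.00258), CHEK1 (-0.16 ± 0.041 SE, adjusted p = 0.00185) and BRCA1 (-0.11 ± 0.040 SE, adjusted p = 0.0255). BRCA1, RAD51AP1, RAD54L and FANCD2 were thus lower in all 3 comparisons (9.76%, background 9.13%). NBN and CHEK1 separated mainly between the doses: in SLO ½ NBN stood at -0.077 ± 0.043 (SE) against VEH and CHEK1 at -0.052 ± 0.041 (SE), neither called by edgeR, although the SLO ½ libraries of both lay below all VEH libraries.

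The genes higher at the full dose included BARD1 (0.35 ± 0.050 SE, adjusted p = 2.23e-06) and SLX4 (0.28 ± 0.058 SE, adjusted p = 0.000254), whose SLO ½ libraries read 29.9, 32.1 and 31.8 CPM, below VEH. RAD51D, another of the recombinase paralogs, read 20.6, 23.7 and 22.9 CPM in VEH, 19.6, 19.3 and 22.2 in SLO ½ and 23.4, 25.3 and 23.3 in SLO. With TMM scaling and all libraries it was called by edgeR only between the doses (0.24 ± 0.075 SE, adjusted p = 0.0118). Without VEH replicate 1 or SLO ½ replicate 3 it was called lower in SLO ½ than in VEH (-0.21 to -0.20, adjusted p = 0.0398 to 0.0444). FANCL and FANCC, with 37.4, 49.00 and 41.5 and 26.7, 25.6 and 24.5 CPM in SLO ½, were lower in SLO ½ and higher again at the full dose (0.20 ± 0.068 SE, adjusted p = 0.0217, and 0.21 ± 0.080 SE, adjusted p = 0.0321). ATM (0.16 ± 0.056 SE, adjusted p = 0.0197) and MSH3 (0.15 ± 0.057 SE, adjusted p = 0.0353) stayed below VEH at both doses but less so at the full dose, and CLSPN rose further (0.15 ± 0.053 SE, adjusted p = 0.0218). Of the 14 calls, 7 held without any 1 library, those of BARD1, SLX4, RAD51AP1, RAD54L, NBN, CHEK1 and FANCD2. The other 7, of BRCA1, RAD51D, ATM, CLSPN, FANCC, FANCL and MSH3, were each lost without 3 or 4 of the 6 libraries taken singly, with adjusted p of 0.0536 to 0.231. The call of BRCA1 was also lost in 5 other settings (adjusted p = 0.0587 to 0.142), those of ATM, FANCC, FANCL and RAD51D with limma on TPM, and those of FANCC and MSH3 with DESeq2.

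For the remaining genes the doses were not told apart. MSH6 read -0.042 (interval -0.12 to 0.036) between the doses, TOPBP1 -0.014 (interval -0.10 to 0.074), FANCI -0.057 (interval -0.14 to 0.031), BRIP1 0.029 (interval -0.060 to 0.12) and MRE11 0.11 (interval 0.017 to 0.20). For MSH6 and FANCI these intervals are narrow beside the falls against VEH. MRE11 (adjusted p = 0.0512), BRCA2 (adjusted p = 0.0558) and CHEK2 (adjusted p = 0.0546) lay just past the threshold and were called in several alternative settings.

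The summed level of the 41 genes was 3406 to 3546 CPM in VEH, with SLO ½ at 2954 to 2991 and SLO at 2961 to 3033, that is 85.6% of the VEH mean in SLO ½ and 86.4% at the full dose. The treated groups overlapped each other and lay below VEH. A list of 22 proliferation genes lay below VEH as well, and unlike the 41 genes its sum was lower at the full dose than in SLO ½. The most abundant of the 22 were TOP2A (mean 1960 CPM in VEH, 1590 in SLO) and MKI67 (1472 and 792), which weigh most in the sum. Their sum ran from 8083 to 8334 CPM in VEH, from 6713 to 6866 (82.4% of the VEH mean) in SLO ½ and from 6049 to 6242 (74.8%) in SLO. Of these 22 genes, 17 were lower (77.3%, background 32.1%) and 4 higher (18.2%, background 32.9%) in SLO than in VEH. The 4 that were higher were E2F1, E2F7, CCNE2 and TYMS (0.28, 0.28, 0.29 and 0.099 on the log2 scale), which are E2F transcription factors, a cyclin and an enzyme of nucleotide synthesis. Genes of the same kinds were among those that fell. E2F2 went from a mean of 10.5 CPM in VEH to 5.74 in SLO, E2F8 from 25.4 to 11.1, CCNA2 from 223 to 170 and RRM2 from 514 to 462. The listed MCM genes fell too, for example MCM6 from 228 to 112 and MCM4 from 507 to 415. Reads of the 41 genes per 100 proliferation reads were 41.6 to 42.5 in VEH, with SLO ½ at 43.0 to 44.2 and SLO at 47.4 to 49.6. The part of proliferation in the repair gene changes was not tested.

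**Figure D5:**
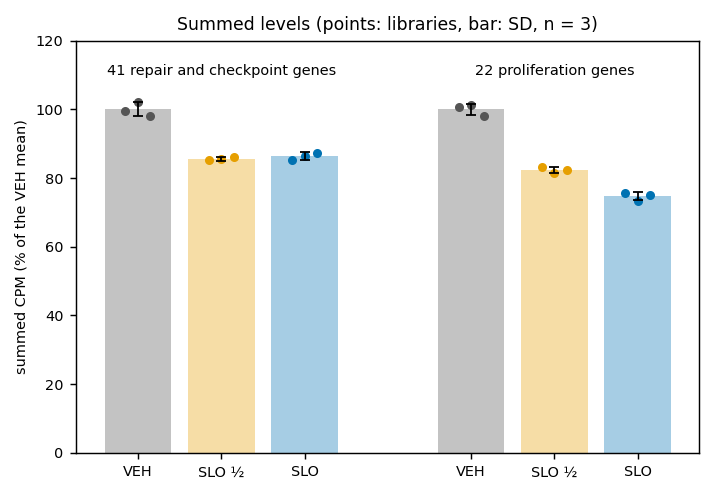
Summed CPM as a percentage of the VEH mean for the 41 repair and checkpoint genes (left) and 22 proliferation genes (right); bars are means with SD, points are the 3 libraries. The repair sum stops at 85.6% and 86.4%, while the proliferation sum goes on from 82.4% to 74.8%.

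The 41 genes were also divided by a list, drawn from general knowledge, of 16 genes held to peak around S phase, against 25 others. Timing was not measured here, and the list was drawn up with earlier results of these data known. The 16 were BRCA1, BRCA2, BARD1, RAD51AP1, RAD54L, XRCC2, BLM, EXO1, CHEK1, CLSPN, FANCA, FANCB, FANCD2, FANCI, BRIP1 and MSH6. Of the 16, 11 were lower (68.8%, background 32.1%) and 3 higher (18.8%, background 32.9%) in SLO (median log2 fold change -0.24). In SLO ½ 11 were lower (68.8%, background 25.3%) and 1 higher (6.25%, background 26.7%; median -0.23). Of the 25, 9 were lower (36.0%, near the background of 32.1%) and 3 higher (12.0%, background 32.9%) in SLO (median -0.094). In SLO ½ 11 of them were lower (44%, background 25.3%) and 2 higher (8.0%, background 26.7%; median -0.17). Between the doses, 5 of the 16 were lower in SLO (31.2%, background 20.3%) and 2 higher (12.5%, background 20.8%). Of the 25, 1 was lower (4.0%) and 6 were higher (24.0%, near the background). Summed by role, mismatch repair genes stood at 387 to 393 CPM in VEH, at 270.5 to 285 in SLO ½ and at 276 to 283 at the full dose. Checkpoint genes, with CLSPN and CHEK2 on the rise, stood at 819 to 886, at 742 to 747 and at 772 to 787 CPM. In the other roles, too, every treated library summed below every VEH library.

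Per length, the deposited TPM values placed RAD51AP1 highest of the 41 genes in VEH, at 227 ± 10.01 (SD, n = 3), followed by TOPBP1 at 159.7 ± 2.92, MSH6 at 136 ± 1.15 and EXO1 at 133 ± 1.16. Farther down, CHEK1 at 95.7 ± 0.894, CLSPN at 94.4 ± 8.88 and BRCA1 at 92.9 ± 2.80 differed by less than the spread of CLSPN. The median was 33.9 TPM, 16 genes exceeded 50 and 7 stayed under 10, with RAD50 last at 0.643. In SLO, RAD51AP1 still led at 161 ± 4.75, TOPBP1 followed at 128 ± 6.22, and CLSPN, at 118 ± 4.38, stood above EXO1 at 104 ± 3.05 and MSH6 at 90.6 ± 0.95. The lengths behind these values equal all annotated exon bases of a gene within 5% for 32 of 41 genes, which reach 39184 bases for ATM and 37977 for FANCL, so genes with long rare exons stand low in this order.

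The 41 genes are long, with a median span of 75.6 kb from start to end against 29.6 kb over all tested genes. Of the 12 that span over 100 kb, among them RAD51B, ATM, ATR, MSH3 and FANCC, 8 were lower in SLO ½ and 7 in SLO (66.7% and 58.3%), and of all tested genes of that span 37.3% and 36.9% were lower. Of the 23 that span 30 to 100 kb, 12 and 11 were lower (52.2% and 47.8%, against 31.3% and 35.9%). Across the 41 genes, which share libraries and normalization, Spearman's rho between span and log2 fold change was -0.30 in SLO ½ and -0.115 in SLO, and across all tested genes it was -0.15 and -0.044. Between the doses it was 0.16 and 0.11.

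Other genes of the same pathways were counted from a list of 66 partners, all tested. In SLO 33 were lower (50%, background 32.1%), 11 higher (16.7%, background 32.9%) and 22 not called, so the share called in either direction, 66.7%, was near the 64.9% of all tested genes. In SLO ½ 30 were lower (45.5%, background 25.3%), 5 higher (7.58%, background 26.7%) and 31 not called, with 53.0% called against 52%. Between the doses, 13 were lower in SLO (19.7%, background 20.3%) and 8 higher (12.1%, background 20.8%). By pathway, 7 of 21 recombination partners (33.3%, near the background of 32.1%), 9 of 13 Fanconi partners, 4 of 9 mismatch repair partners and 13 of 23 checkpoint partners were lower in SLO. Among partners that were called and had an average log2 CPM of at least 2, the largest falls were in MCM9, a helicase of recombination, from 12.4, 16.1 and 12.5 CPM in VEH to 7.57, 8.12 and 7.58 in SLO (-0.81 ± 0.11 SE, adjusted p = 2.24e-07), in SEM1, a small protein bound to BRCA2 (-0.60 ± 0.050 SE, adjusted p = 1.08e-11), and in WDR48, the cofactor of the enzyme that removes ubiquitin from FANCD2 (-0.60 ± 0.046 SE, adjusted p = 2.42e-12). MLH3, a mismatch repair and meiotic nuclease subunit (0.45 ± 0.092 SE, adjusted p = 0.000106), SWI5, a cofactor of the recombinase (0.37 ± 0.078 SE, adjusted p = 0.000141), and FAAP24, the partner of FANCM (0.35 ± 0.13 SE, adjusted p = 0.0236), showed the largest rises. SWSAP1, below that level, stood at 0.39 and was not called (adjusted p = 0.26).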

How the data were processed

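Polyadenylated RNA of 9 HMC3 libraries was sequenced. Per the labels and the study's methods, trimming was done with Trimmomatic 0.38 and alignment to the GRCh38 genome with STAR 2.7.1a, and the authors deposited stranded read counts per gene. The annotation release is not given in the sources used here. The deposited TPM values, scaled by the authors for length and depth, were used for the order of levels between genes and as an alternative. The 4 lines of the count file that name no gene were left out; reads outside genes took 5.54% to 8.38% of the reads and reads mapping to several places 7.16% to 8.52%.

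Genes passing filterByExpr (14727) were fitted with edgeR 4.0.16 (R 4.3.3; TMM scaling, quasi-likelihood test, all 9 libraries, 1 term per group), and p-values were adjusted by Benjamini-Hochberg over all of them. The test was first run on simulated data in which few genes changed, with rises and falls in equal number. That run does not check the scaling or the false calls where most genes are called, as in SLO against VEH. Alternatives were DESeq2 1.42.0 and its size factors, library size alone, no filter, at least 10 counts in every library, the 2 groups compared alone, the replicate number as a block, limma 3.58.1 on log2(TPM + 1) and log2(TPM + 0.1), and leaving out each library. No 2 libraries of a group agreed within sampling noise (chi-square per degree of freedom 1.78 to 4.19). Genes given by library were the 6 with the smallest adjusted p in each direction and the 5 highest not called, in SLO against VEH and against SLO ½, with a log2 CPM of at least 2, and of the partners the 3 largest called rises and falls at that level. Other members are named to account for all 41; library values of EXO1, FANCA, FANCE, MSH3 and FANCC, outside these rules, the ratios and P2RY12 were picked after their values were seen. The members and gene lists were chosen with earlier results of these data known. Intervals are 95% intervals of the fit. Promoters and motif shares came from RefSeq, and exon overlaps from GENCODE annotation of GRCh38.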

Additional observations from a re-analysis of the deposited data

How the results depend on the processing

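The direction and approximate number of falls held over all settings run: 20 genes were lower in SLO than in VEH under every setting with all libraries, and 20 to 22 with 1 library left out, while in SLO ½ the number was 19 to 26 and 20 to 24. Scaling by library size alone, which moved the median of all tested genes by less than 0.1 (to 0.0888 in SLO), gave medians of the 41 genes of -0.11 in SLO, -0.14 in SLO ½ and 0.061 between the doses. Limma on log2(TPM + 0.1) gave a median of -0.23 in SLO ½ and 0.071 between the doses, and limma on log2(TPM + 1) 0.070 between the doses. Both limma fits called 0 genes higher in SLO ½ than in VEH, against 3 by edgeR, and leaving out 1 library gave 1 to 2, the lowest without SLO ½ replicate 2. Between the doses, leaving out 1 library gave 9 to 13 calls against 14, of which 9 to 12 were among the 14, the fewest without SLO ½ replicate 3, with 4 to 8 genes higher (4 without SLO ½ replicate 3, and 5 without SLO replicate 2 or 3) and a median of 0.030 to 0.069, the highest without SLO replicate 1. The cause of these differences was not tested.

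The replicate numbers were also tried as a block. Deviations of same-numbered libraries correlated at 0.00277 to 0.0873, and those of different-numbered libraries at -0.0621 to 0.037. Of the 9 libraries, 3 correlated best with their own number in both other groups. These values do not settle whether the numbers pair samples, and the main fit did not use them. With the replicate block, 26 genes were called in SLO, 25 in SLO ½ and 17 between the doses, against 26, 25 and 14 without it.

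For SLO against VEH, the log2 fold changes of uncalled genes that changed sign were, by library size alone RAD54B 0.069, FANCC 0.018, FANCL 0.059, with at least 10 counts in every library RAD54B 0.018, FANCL 0.0077, with the replicate block RAD54B 0.00063, unfiltered RAD50 -0.013, FANCB -0.011, by limma on log2(TPM + 1) RAD50 -0.0041, by limma on log2(TPM + 0.1) RAD50 -0.032. With 1 library left out their ranges were RAD54B -0.096 to 0.091, RAD50 -0.23 to 0.25, FANCB -0.068 to 0.075, FANCC -0.16 to 0.030. For SLO ½ against VEH, the log2 fold changes of uncalled genes that changed sign were, by limma on log2(TPM + 1) RAD51C -0.0026, by limma on log2(TPM + 0.1) RAD51C -0.0027, by library size alone RAD52 0.023, RAD50 0.041, PMS2 0.0064, with at least 10 counts in every library RAD50 0.011, with the replicate block RAD50 0.0032. With 1 library left out their ranges were RAD52 -0.16 to 0.045, RAD50 -0.10 to 0.082, FANCB -0.14 to 0.0051, PMS2 -0.16 to 0.030. For SLO against SLO ½, the log2 fold changes of uncalled genes that changed sign were, by library size alone WRN 0.0047, TOPBP1 0.010, FANCF 0.0095, by limma on log2(TPM + 1) WRN 0.014, TOPBP1 0.021, FANCF 0.010, by limma on log2(TPM + 0.1) WRN 0.015, TOPBP1 0.021, FANCF 0.011. With 1 library left out their ranges were PALB2 -0.0078 to 0.046, RAD51B -0.033 to 0.041, RAD50 -0.22 to 0.26, RBBP8 -0.0055 to 0.031, WRN -0.041 to 0.0082, TOPBP1 -0.056 to 0.010, FANCF -0.13 to 0.073, BRIP1 -0.0077 to 0.070. None of these values passed the test. Low counts limit RAD50 most, with 216 reads over 9 libraries, and 76.9% of its exon bases are shared with an overlapping gene. Its interval for SLO against VEH, -0.53 to 0.54, leaves the direction of any change unknown.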
